A study of Mus musculus with 9 samples.

Results

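The AP-1 transcription factors were described here as 10 genes, matched by symbol to the gene identifiers of the count table: Fos, Fosb, Fosl1, Fosl2, Jun, Junb, Jund, Atf3, Batf and Maff. All 10 were found among the 57126 genes of the table, and all 10 were among the 17555 genes that passed the filter on low counts. AP-1 is not a single protein. It is a set of dimers built from proteins with a basic leucine zipper, in which the zipper holds the partners together and the basic region reads the DNA. Jun proteins pair with themselves or with Fos proteins, while Fos proteins need a Jun partner. ATF, BATF and small MAF proteins enter the same network. Many of these genes are immediate-early genes, which are transcribed within minutes of a stimulus without new protein synthesis and whose messages decay quickly. In dendritic cells AP-1 is known to act downstream of Toll-like receptors through MAP kinases.

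The cells were mouse plasmacytoid dendritic cells, or pDCs, isolated by FACS and known for making type I interferon when they sense nucleic acids. The labels give 3 treatments, each with 3 libraries numbered 1, 2 and 3: PBS (the vehicle), mitochondrial DNA (mtDNA) and oxidized mitochondrial DNA (Ox-mtDNA). The labels give no strain, genotype, age, dose or time, and they do not say whether libraries of a group came from separate mice or cultures, so p-values measure only the spread between these libraries. Polyadenylated RNA was sequenced, and values are CPM, a gene's share of all fragments counted in its library, put on a common scale with TMM factors.

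Total counts per library ranged from 16029951 to 25378884. Siglech, a receptor that marks mouse pDCs, was between 1190 and 2440 CPM in all 9 libraries. The 16 pDC markers together summed to 8700 to 11600 CPM in PBS, 6440 to 9840 CPM in mtDNA and 4640 to 8410 CPM in Ox-mtDNA. Of these 16, 15 had a negative fold change in Ox-mtDNA against PBS (median log2 value -0.90). Over all tested genes, 53.8% had a positive fold change and the median was 0.06. The other cell types listed were at lower sums, from under 1 CPM for erythroid genes to at most 2350 CPM for monocyte and macrophage genes, and no listed marker was at 0 in all libraries. The part of these differences in the results below was not tested. In bulk RNA, fewer cells of a type and less RNA per cell cannot be told apart.

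The libraries numbered 3 stood apart in all 3 groups. They and the other 6 lay at opposite ends of the first principal component of log2 CPM, which carried 70.7% of the variance. On the second component, with 13% of the variance, they were at -104 in PBS, 38.5 in mtDNA and 56.2 in Ox-mtDNA. Libraries 1 and 2 were at -30.5 and -34.2 in PBS, -13.8 and -16.2 in mtDNA and 62.9 and 40.9 in Ox-mtDNA. The X-inactivation RNA Xist was at 818, 1930 and 2090 CPM in the libraries numbered 3 of PBS, mtDNA and Ox-mtDNA. It reached at most 0.846 CPM elsewhere. Genes of the Y chromosome summed to 1.18 to 5.52 CPM there and to 259 to 378 CPM elsewhere. By these genes the libraries numbered 3 were of female cells and the other 6 of male cells. Within a group, library 3 therefore came from other mice than libraries 1 and 2. Sex cannot be told apart from other differences of these libraries. GC-rich transcripts were also low in the libraries numbered 3, which bears on several AP-1 genes and is described with them. Fold changes of the members are therefore given for all 9 libraries and, in each comparison, for the 6 libraries numbered 1 and 2.

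Before the values, the start regions of 6 members are shown, because Fos, Fosb, Jun and Atf3 had the largest fold changes in Ox-mtDNA against PBS, Batf had the smallest, and Maff held the full cAMP response element. Promoters are from RefSeq on GRCm38.p6, a different build from the GRCm39 coordinates of the count table. They matched 9 of the 10 members (Maff with 3 start sites), and Fosl1 had no entry. Each line gives the 250 bases before the annotated start, 5′ to 3′ on the gene's strand. Capitals mark the core of the cAMP response element (CRE), TGACG on either strand, the TATA box TATAAA, and TGACATCA, the AP-1-like element known from the Jun promoter.
Fos, chr12:85473640-85473889, plus strand: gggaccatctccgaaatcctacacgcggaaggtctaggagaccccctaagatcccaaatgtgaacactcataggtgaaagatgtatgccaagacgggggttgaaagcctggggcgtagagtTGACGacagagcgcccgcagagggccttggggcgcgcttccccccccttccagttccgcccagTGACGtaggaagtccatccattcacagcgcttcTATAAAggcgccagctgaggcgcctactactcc
Fosb, chr7:19310046-19310295, minus strand: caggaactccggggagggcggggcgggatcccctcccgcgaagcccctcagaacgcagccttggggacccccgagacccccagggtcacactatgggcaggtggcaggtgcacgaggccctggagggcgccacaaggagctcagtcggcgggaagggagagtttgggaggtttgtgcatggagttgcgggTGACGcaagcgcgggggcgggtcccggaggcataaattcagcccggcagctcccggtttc
Jun, chr4:95052223-95052472, minus strand: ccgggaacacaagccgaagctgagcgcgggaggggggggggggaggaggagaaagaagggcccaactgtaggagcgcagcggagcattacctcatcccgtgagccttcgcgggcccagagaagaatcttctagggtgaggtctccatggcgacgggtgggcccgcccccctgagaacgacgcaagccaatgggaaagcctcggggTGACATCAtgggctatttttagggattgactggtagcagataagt
Atf3, chr1:191183334-191183583, minus strand: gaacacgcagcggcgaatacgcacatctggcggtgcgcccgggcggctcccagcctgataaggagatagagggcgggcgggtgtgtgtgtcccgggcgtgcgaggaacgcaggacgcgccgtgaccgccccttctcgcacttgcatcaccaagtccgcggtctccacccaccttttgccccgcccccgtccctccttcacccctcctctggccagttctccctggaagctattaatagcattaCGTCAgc
Maff, chr15:79347270-79347519, plus strand: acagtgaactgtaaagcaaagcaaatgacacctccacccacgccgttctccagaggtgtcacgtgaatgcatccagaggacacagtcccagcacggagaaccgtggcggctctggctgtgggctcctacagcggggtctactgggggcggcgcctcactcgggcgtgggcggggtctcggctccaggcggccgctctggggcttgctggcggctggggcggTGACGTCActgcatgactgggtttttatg
Batf, chr12:85686470-85686719, plus strand: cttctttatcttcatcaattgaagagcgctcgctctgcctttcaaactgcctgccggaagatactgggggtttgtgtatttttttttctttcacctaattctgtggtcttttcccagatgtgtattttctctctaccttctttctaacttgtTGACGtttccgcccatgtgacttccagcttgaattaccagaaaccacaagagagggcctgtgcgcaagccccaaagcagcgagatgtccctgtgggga

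The CRE core TGACG or its reverse complement was found within these 250 bases in 6 of 9 members with an entry (Fos, Fosb, Junb, Atf3, Batf and Maff). It was found in 17.8% of all 32851 promoters of the same length. The shares over all promoters given here were not matched for GC content, which ranged from 46.4% in Batf to 68.8% in Fosb among the members. They therefore do not show that a motif is particular to AP-1 genes. The core was singled out after the sequences had been read. The core includes the full CRE TGACGTCA, which was found in Maff alone and in 1.55% of all promoters. In Fos the cores began 129 and 66 bases before the start, and TATAAA began 33 bases before it. Fos was the sole member with TATAAA, which 12.4% of all promoters held. In Atf3 the core lay on the minus strand of the gene and began 7 bases before the start. TGACATCA began 45 bases before the start in Jun and in the downstream-most Maff entry, against 2.93% of all promoters. The consensus AP-1 site TGANTCA was found in 0 of 9 members and in 6.75% of promoters. The GC box GGGCGG was found in 7 of 9 members (all but Junb and Jund) and in 32.7% of promoters. A kappa-B consensus was found in 4 members (Fos, Fosb, Fosl2, Maff) and in 7.25% of promoters. A member was counted if any of its entries held a motif, so Maff, with several entries, is set against single promoters. The kappa-B site of Maff lay in an entry not shown. The CArG box CCWWWWWWGG (W for A or T) was found in 0 of 9 members and in 1.47% of promoters. Bases further than 250 before the start were not searched, so a motif counted as absent may lie there. A heat shock factor consensus was found in 2 members (Fosl2 and Jun) and in 6.6% of promoters. Both strands were searched for every motif, and Batf, whose level differed least, held the core too.

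Fos (chromosome 12, 85520664 to 85524047, plus strand, GRCm39, ENSMUSG00000021250) is the classical immediate-early partner of Jun. It was at 8.23, 4.38 and 0.987 CPM in PBS libraries 1, 2 and 3. It was at 17.6, 9.7 and 216 CPM in mtDNA and at 542, 63.6 and 253 CPM in Ox-mtDNA. All Ox-mtDNA libraries were above all PBS libraries, whereas mtDNA library 3 lay among the Ox-mtDNA libraries and far above mtDNA libraries 1 and 2. Group means were 4.53 ± 3.63, 81.1 ± 117 and 286 ± 241 CPM (SD, n = 3 each) in PBS, mtDNA and Ox-mtDNA. Ox-mtDNA against PBS gave a log2 fold change of 5.98 (SE 1.58).

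Fosb (chromosome 7, 19036621 to 19043976, minus strand), a close Fos relative that is also induced rapidly, was at 2.7, 3.92 and 0 CPM in PBS. It was at 6.99, 4.13 and 1.96 CPM in mtDNA and at 236, 91.8 and 4.85 CPM in Ox-mtDNA. Ox-mtDNA libraries 1 and 2 stood well above the rest, and Ox-mtDNA library 3 lay within the mtDNA range although above every PBS library. Means were 2.21 ± 2.01, 4.36 ± 2.53 and 111 ± 117 CPM (SD, n = 3 each), and the log2 fold change against PBS was 5.65 (SE 1.84). PBS library 3 held no Fosb count, so the size of its difference in replicate 3 depends on the prior count and is not read.

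Fosl2 (chromosome 5, 32293145 to 32315186, plus strand), which encodes Fra-2, a Fos protein without the strong activation domain of Fos, was at 3.44, 1.91 and 1.06 CPM in PBS. It was at 10.8, 9.09 and 4.78 CPM in mtDNA and at 14.6, 97.5 and 9.39 CPM in Ox-mtDNA. All mtDNA and all Ox-mtDNA libraries were above all PBS libraries, and the mtDNA and Ox-mtDNA values overlapped. The log2 fold change of Ox-mtDNA against PBS was 4.24 (SE 1.0), and 2.47 without Ox-mtDNA library 2, the highest of the 9.

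Fosl1 (chromosome 19, 5497575 to 5505974, plus strand), which encodes the related Fra-1, was low in most libraries. It was at 0.791, 0.619 and 0.038 CPM in PBS, at 1.49, 1.38 and 0 CPM in mtDNA and at 0.945, 27.5 and 0.0516 CPM in Ox-mtDNA. Only Ox-mtDNA library 2 exceeded 1.49 CPM, and the log2 fold change of 4.29 (SE 2.16) went to 0.02 without that library. In that same library the pDC markers had their lowest sum, 4640 CPM, and the B cell markers their highest, 723 CPM. The part of these markers in the result was not tested. Of the 1864 exon bases of Fosl1, 1163 (62.4%) overlap Ccdc85b on the opposite strand, and the counting did not use strand. Ccdc85b was at 39.6 CPM in Ox-mtDNA library 2 and between 16.1 and 18.5 CPM in the remaining libraries numbered 1 and 2, so reads of the pair cannot be told apart.

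Jun (chromosome 4, 94937271 to 94940459, minus strand), the founding AP-1 subunit and a target of JNK kinases, reached the highest level of any member per kilobase of exon, in Ox-mtDNA library 1. In CPM it was at 29.3, 26.8 and 0.494 CPM in PBS and at 51.6, 37 and 23.5 CPM in mtDNA. In Ox-mtDNA it was at 6720, 492 and 47.1 CPM. All Ox-mtDNA libraries were above all PBS libraries, but the 3 Ox-mtDNA values lay far apart and the lowest lay within the mtDNA range. Means were 18.9 ± 16, 37.4 ± 14 and 2420 ± 3730 CPM (SD, n = 3 each). The log2 fold change against PBS was 7.01 (SE 2.10), and 3.82 without Ox-mtDNA library 1.

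Junb (chromosome 8, 85703539 to 85705347, minus strand), a Jun protein that can restrain or replace Jun in a dimer, was at 78.8, 56.7 and 0.266 CPM in PBS. It was at 113, 99.9 and 2.77 CPM in mtDNA and at 306, 313 and 1.96 CPM in Ox-mtDNA. In libraries 1 and 2 the order was PBS, mtDNA, Ox-mtDNA with no overlap, and all 3 libraries numbered 3 were near the bottom. The log2 fold change of Ox-mtDNA against PBS was 2.19 over 9 libraries, with an SE of 2.0. Over libraries 1 and 2 it was 2.20, with an SE of 0.23.

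Jund (chromosome 8, 71151599 to 71153265, plus strand), the Jun protein usually present without stimulation, was at 152, 123 and 0.0759 CPM in PBS. It was at 137, 147 and 1.47 CPM in mtDNA and at 789, 599 and 0.929 CPM in Ox-mtDNA. In libraries 1 and 2 the PBS and mtDNA values overlapped and both Ox-mtDNA values were above them. The log2 fold change of Ox-mtDNA against PBS was 2.34 both over 9 libraries (SE 2.36) and over libraries 1 and 2 (SE 0.23). Jund is a gene of 1 exon, and 877 of its 1667 bases (52.6%) overlap Gm11175 on the opposite strand. Gm11175 was at 138, 112 and 0.0759 CPM in PBS and at 725, 548 and 0.464 CPM in Ox-mtDNA. Fragments over the shared bases were counted for both genes, so the Jund level is uncertain.

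Atf3 (chromosome 1, 190902493 to 190950236, minus strand), a stress-induced factor that often represses inflammatory genes in myeloid cells, was at 9.68, 7.01 and 3 CPM in PBS. It was at 20.5, 17.5 and 694 CPM in mtDNA and at 767, 251 and 710 CPM in Ox-mtDNA. As for Fos, mtDNA library 3 was at the level of the Ox-mtDNA libraries, and all 3 Ox-mtDNA libraries were above all PBS libraries. Means were 6.56 ± 3.36, 244 ± 390 and 576 ± 283 CPM (SD, n = 3 each), and the log2 fold change of Ox-mtDNA against PBS was 6.46 (SE 1.64).

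Maff (chromosome 15, 79230821 to 79243276, plus strand) encodes a small MAF protein, which has a zipper but no activation domain. It was at 12.1, 8.46 and 0.797 CPM in PBS, at 22, 19.9 and 9.19 CPM in mtDNA and at 52.3, 150 and 9.65 CPM in Ox-mtDNA. Within each replicate number the order was PBS, mtDNA, Ox-mtDNA, although mtDNA and Ox-mtDNA library 3 were nearly level and the groups overlapped. For Ox-mtDNA against PBS the log2 fold change was 3.31 (SE 1.17), and 2.11 without Ox-mtDNA library 2. An unnamed gene on the opposite strand (ENSMUSG00000121075) overlaps 416 of the 2295 exon bases of Maff (18.1%). That gene was at 7.72, 4.85 and 0.835 CPM in PBS and at 12.9, 13.1 and 9.73 CPM in mtDNA. In Ox-mtDNA it was at 26.4, 80.6 and 8.31 CPM. Fragments over the shared bases were counted for both genes, so the Maff level is uncertain.

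Batf (chromosome 12, 85733443 to 85755861, plus strand), which binds DNA with Jun proteins and with IRF4 or IRF8, differed least. It was at 15.4, 14.9 and 26.9 CPM in PBS, at 14.5, 17.9 and 58.5 CPM in mtDNA and at 18.6, 16.8 and 51.5 CPM in Ox-mtDNA. The 3 groups overlapped, and the libraries numbered 3 were the highest of each group, the opposite of Junb and Jund. Ox-mtDNA differed from PBS by a log2 fold change of 0.60 (SE 0.65), and 0.23 (SE 0.23) over libraries 1 and 2.

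**Figure D1:**
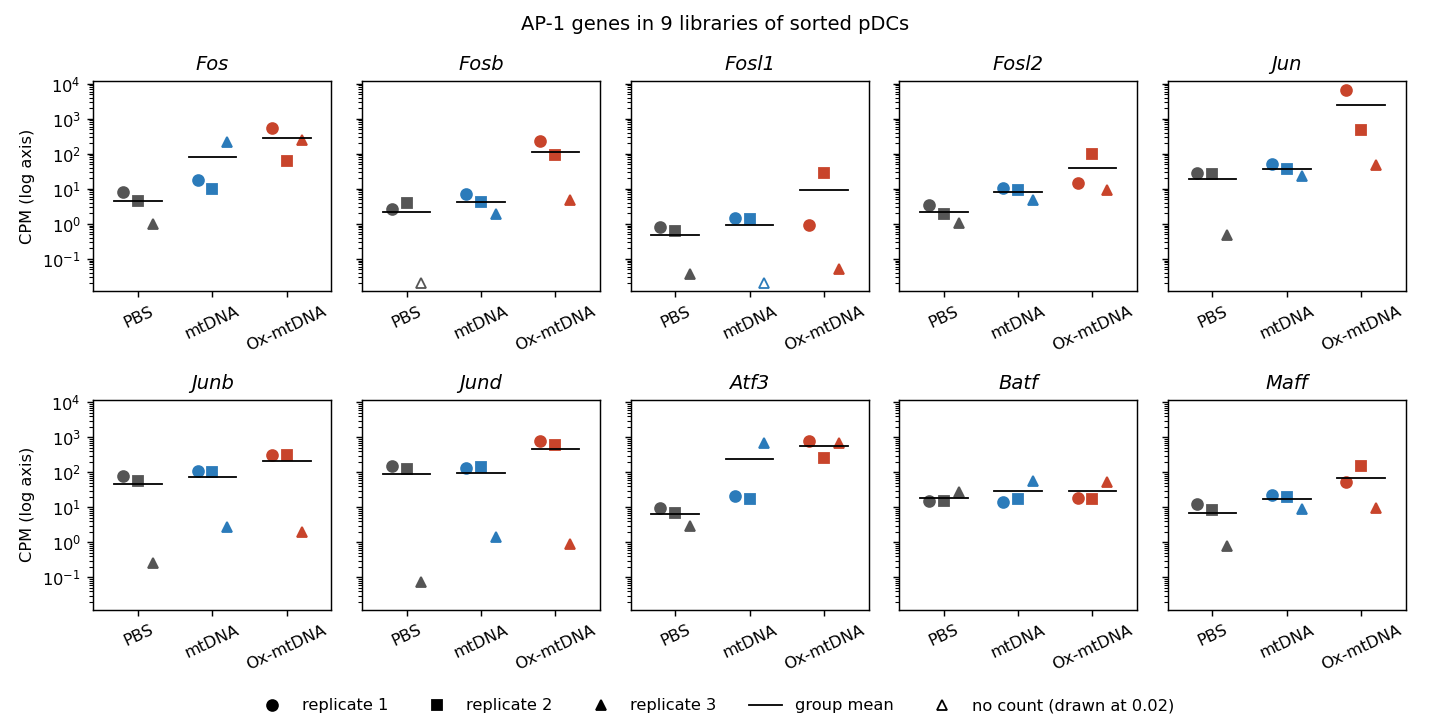
CPM of the 10 AP-1 genes (log axis) in each library of PBS, mtDNA and Ox-mtDNA, with symbols for replicates 1, 2 and 3, open symbols for a count of 0 and a line at the group mean. Fos and Atf3 in mtDNA replicate 3 (216 and 694 CPM) lie among the Ox-mtDNA libraries, Jun in Ox-mtDNA spans 47.1 to 6720 CPM, and Junb and Jund lie under 3 CPM in every library of replicate 3.

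The first comparison, Ox-mtDNA against PBS, asks how these genes respond to oxidized mitochondrial DNA. All 10 members had a positive fold change, as did 53.8% of all tested genes, and their median was 4.27 on the log2 scale against 0.06 over all genes. Jun, Atf3, Fos and Fosb had the largest values and Batf the smallest. All 3 Ox-mtDNA libraries were above all 3 PBS libraries for Fos, Fosb, Fosl2, Jun and Atf3, 5 of 10 members, against 7.39% of all genes. The log2 CPM difference was positive in each replicate number for all 10 members, against 20.2% of all genes. For Fosb, Fosl1, Junb and Jund the sign in replicate 3 rests on under 10 counts in PBS, and for Fosl1 on 1 count in each library. The members were chosen with earlier results of these data known, so counts of members beside all genes are descriptions.

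None of the 10 passed the adjusted threshold of 0.05 in the edgeR quasi-likelihood test on 9 libraries, in which 0% of genes were higher and 0 of 17555 passed in either direction. The adjusted p was 0.472 for Fos, Fosb, Fosl2, Jun, Atf3 and Maff, 0.583 for Fosl1, 0.87 for Junb, 0.899 for Jund and 0.916 for Batf (edgeR). At an unadjusted p under 0.05, 6 of 10 members were higher (Fos, Fosb, Fosl2, Jun, Atf3 and Maff), against 5.88% of all genes, and 1722 genes passed in both directions. The unadjusted p ranged from 0.00283 for Fosl2 to 0.0222 for Maff among these 6. With the replicate number as a block 1 gene passed, 0.0057% of those tested and not a member. The smallest adjusted p of a member was 0.115 in that fit (edgeR). There 9 of 10 members were at an unadjusted p under 0.05, all but Batf, beside 3345 of 17555 genes in both directions. Junb was at 2.24 (SE 0.48, unadjusted p = 0.00171) and Jund at 2.33 (SE 0.61, unadjusted p = 0.00543) with the block (edgeR).

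The call depended on the tool and on the libraries. The Wald test of DESeq2 on all 9 libraries called 4 members higher of the 9 to which it gave a p-value, against 1.22% of genes: Fos (adjusted p = 0.0007), Jun (0.000707), Fosl2 (0.00131) and Fosb (0.0126). DESeq2 gave no p-value for Atf3. Over libraries 1 and 2 alone, edgeR called 25 genes higher, 0.146% of those tested, and 1 member among them, Jund (adjusted p = 0.0474). Jund shares fragments with Gm11175, so this call cannot be assigned to Jund alone. Junb was at an adjusted p of 0.0574 and Fosb and Atf3 were at 0.0604 in that fit (edgeR). Over these 6 libraries the log2 fold changes were 7.02 for Jun (SE 1.33), 5.94 for Atf3 (SE 0.64), 5.64 for Fosb (SE 0.62), 5.59 for Fos (SE 1.14), 4.39 for Fosl2 (SE 0.95), 4.32 for Fosl1 (SE 1.44) and 3.30 for Maff (SE 0.54), each close to the value over 9 libraries. With the replicate block added to these 6 libraries, no gene and no member passed, and Atf3 had the smallest adjusted p of 0.103 (edgeR). DESeq2 on the same 6 libraries called 9 of 10 members, all but Batf, against 2.73% of genes higher.

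Differences within a replicate number show how much rests on each library. These are differences of log2 CPM with a prior count of 2, which understates the difference of low genes. In replicate 1 they were 7.84 for Jun, 6.4 for Fosb, 6.29 for Atf3 and 6.02 for Fos, and 0.23 for Fosl1 and 0.27 for Batf. In replicate 2 the order was another: Fosl2 at 5.6, Fosl1 at 5.26 and Atf3 at 5.14 led, with Jun at 4.19 and Fos at 3.83. Of these 2 replicates, Jun and Fos differed more in replicate 1, and Fosl1, Fosl2 and Maff in replicate 2. In replicate 3 Fos and Atf3 differed by 7.86 and 7.84 and Jun by 6.31. The last rest in part on a low PBS library, since Jun was at 47.1 CPM in Ox-mtDNA library 3 and at 0.494 CPM in PBS library 3, with 13 counts. PBS library 3 held under 10 counts for Fosb (0), Fosl1 (1), Jund (2) and Junb (7), and for these no size of the difference in replicate 3 is read.

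**Figure D2:**
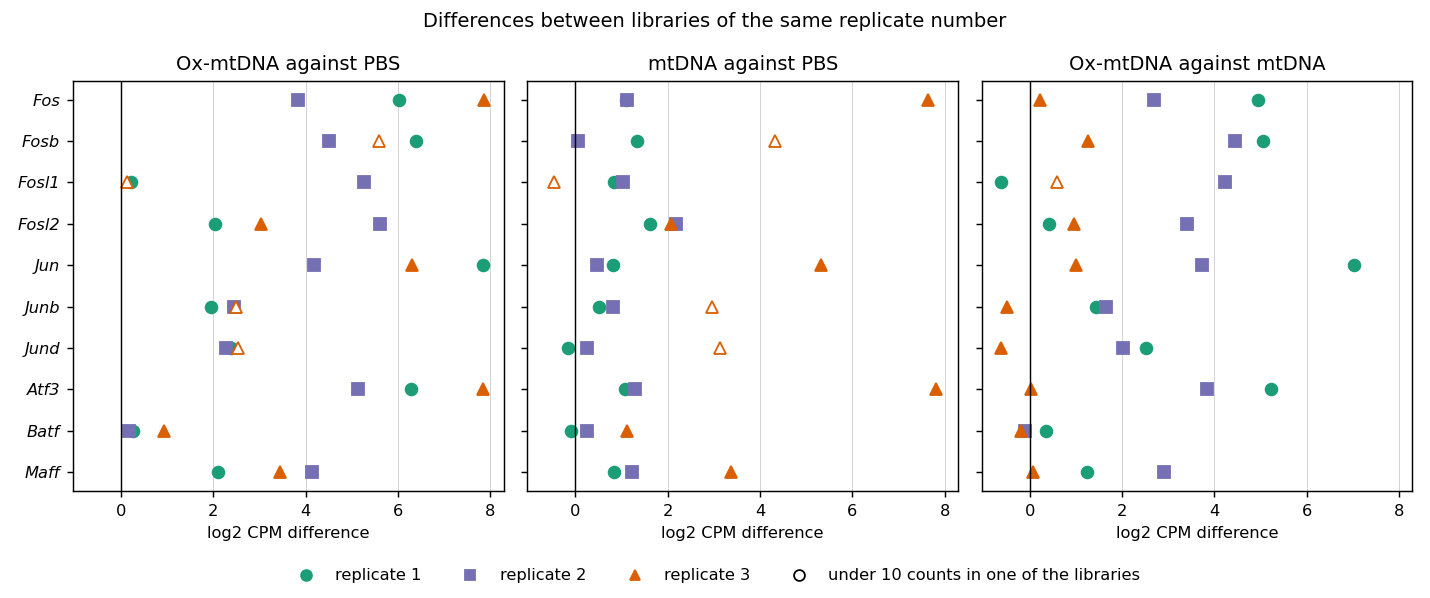
Differences of log2 CPM between libraries of the same replicate number (x axis) for each AP-1 gene (rows), for Ox-mtDNA against PBS, mtDNA against PBS and Ox-mtDNA against mtDNA, with open symbols where either library held under 10 counts. For mtDNA against PBS the replicate 3 points of Fos (7.63) and Atf3 (7.81) lie far to the right of replicates 1 and 2, and for Ox-mtDNA against mtDNA they lie at 0.23 and 0.03.

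The second comparison, mtDNA against PBS, asks what mitochondrial DNA that was not labelled oxidized did, and it shares its PBS libraries with the first. All 10 members again had a positive fold change, against 52% of all genes, with a median of 0.99 against 0.02. Atf3 and Fos had the largest values, at 5.22 (SE 1.55) and 4.16 (SE 1.45). Fosl2 was at 1.94 (SE 0.92), Maff at 1.26 (SE 1.09), and Jund at 0.06 (SE 2.25). All 3 mtDNA libraries were above all 3 PBS libraries for Fos, Fosl2 and Atf3, 3 of 10 members, against 5.58% of genes. The difference was positive in every replicate number for 7 members, against 20.8% of genes, with under 10 counts in PBS library 3 for Fosb and Junb among them.

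No member and no gene passed the edgeR test on 9 libraries (0% higher, adjusted p = 1 for every member). At an unadjusted p under 0.05, 2 members were higher (Atf3 and Fos), against 2.02% of genes, and 460 genes passed in both directions. DESeq2 called 10 genes, 0.0545% higher, and none of the 9 members with a p-value. The values of Fos and Atf3 rest on mtDNA library 3, which lay at the level of the Ox-mtDNA libraries for both, and the labels hold nothing by which its treatment could be checked. Without it the log2 fold changes were 1.56 for Fos and 1.5 for Atf3. In replicates 1 and 2 the differences were 1.09 and 1.13 for Fos and 1.08 and 1.30 for Atf3. Fosl2 did not rest on that library, with differences of 1.62, 2.19 and 2.07 in replicates 1, 2 and 3. Over libraries 1 and 2 the edgeR log2 fold change of Fosl2 was 1.89 (SE 0.88, adjusted p = 1). In that fit Atf3 was at 1.18, Fos at 1.11, Fosl1 and Maff at 1.02, Fosb at 0.75, Jun at 0.66, Junb at 0.65, Batf at 0.10 and Jund at 0.05, all with an adjusted p of 1.

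The third comparison, Ox-mtDNA against mtDNA, tests directly whether the oxidized and the other mtDNA differed, and is the one that bears on oxidation. Of the 10 members, 9 had a positive fold change, against 54.2% of genes, with a median of 2.16 against 0.04. Jun had the largest value, 6.02 (SE 2.0), followed by Fosb at 4.67 (SE 1.75), Fosl1 at 3.30 (SE 2.05) and Fosl2 at 2.30 (SE 0.92). The Fosl1 value turned to -0.97 without Ox-mtDNA library 2, Fosl2 went to 0.53 without the same library, and Jun went to 2.83 without Ox-mtDNA library 1. Atf3 was at 1.24 (SE 1.31) and Fos at 1.82 (SE 1.31), and Batf at -0.06 (SE 0.65). Without mtDNA library 3, whose treatment the labels do not allow to be checked, Atf3 was at 4.97 and Fos at 4.43. For none of the 10 were all 3 Ox-mtDNA libraries above all 3 mtDNA libraries, as was the case for 2.04% of genes. Within replicate numbers, 6 members had positive differences throughout, against 15.1% of genes.

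No member and no gene passed the edgeR test on 9 libraries (0% higher, adjusted p = 1 for every member). At an unadjusted p under 0.05, 3 members were higher (Jun, Fosb and Fosl2), against 0.923% of genes, and 422 genes passed in both directions. DESeq2 on 9 libraries called no gene, and the smallest adjusted p of a member was 0.401, for Jun. The replicate numbers differed widely here. For replicates 1, 2 and 3 the members' median differences were 1.98, 3.16 and 0.15, against medians over all genes of 0, -0.01 and 0.06. The value of replicate 3 includes Fosl1, which had 0 counts in mtDNA and 1 in Ox-mtDNA. In replicate 3, Atf3 (694 and 710 CPM), Fos (216 and 253 CPM) and Maff (9.19 and 9.65 CPM) were close in mtDNA and Ox-mtDNA. Over libraries 1 and 2 alone, the log2 fold changes of Atf3 and Fos were 4.75 (SE 0.60) and 4.48 (SE 1.08), with adjusted p-values of 0.0798 and 0.186 (edgeR). Jun was at 6.36 in that fit, Fosb at 4.89, Fosl1 at 3.31, Fosl2 at 2.50 and Jund at 2.30. Maff was at 2.27, Junb at 1.55 and Batf at 0.14. The smallest adjusted p in that fit was 0.0611 (edgeR), for Jund, which shares fragments with Gm11175. DESeq2 on these 6 libraries called 9 of 10 members, all but Batf, against 2.36% of genes higher. A difference of this comparison between replicate 3 and the other replicates has 1 library a group on one side and was not tested.

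Compared per kilobase of exon, so that genes of different length can be set side by side, the make-up of the family differed between libraries. In PBS libraries 1 and 2 Jund led, with 52% and 52.8% of the summed CPM per kilobase, followed by Junb (24.9% and 22.4%) and Batf (9.19% and 11.2%). The 4 Fos genes together were small there, with Fos itself at 2.23% and 1.49%. Libraries 1 and 2 of mtDNA had nearly the same order, with Jund at 39.6% and 44.4% and Junb at 30% and 27.8%. In Ox-mtDNA library 1 Jun made up 60.7% and Jund 13.6%, and in Ox-mtDNA library 2 Jund still led at 37%, with Junb at 17.8%, Jun at 15.9% and Atf3 at 12%. The sum was 175 and 140 CPM per kilobase in PBS libraries 1 and 2, 208 and 198 in mtDNA, and 3472 and 970 in Ox-mtDNA. In the libraries numbered 3 the order was unlike any of these. Batf made up 91.1% of a sum of 30.9 CPM per kilobase in PBS. Atf3 made up 64.3% of 501 in mtDNA and 62.6% of 527 in Ox-mtDNA, each followed by Fos at 20.4% and 22.7%. The Jund share carries the reads shared with Gm11175.

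**Figure D3:**
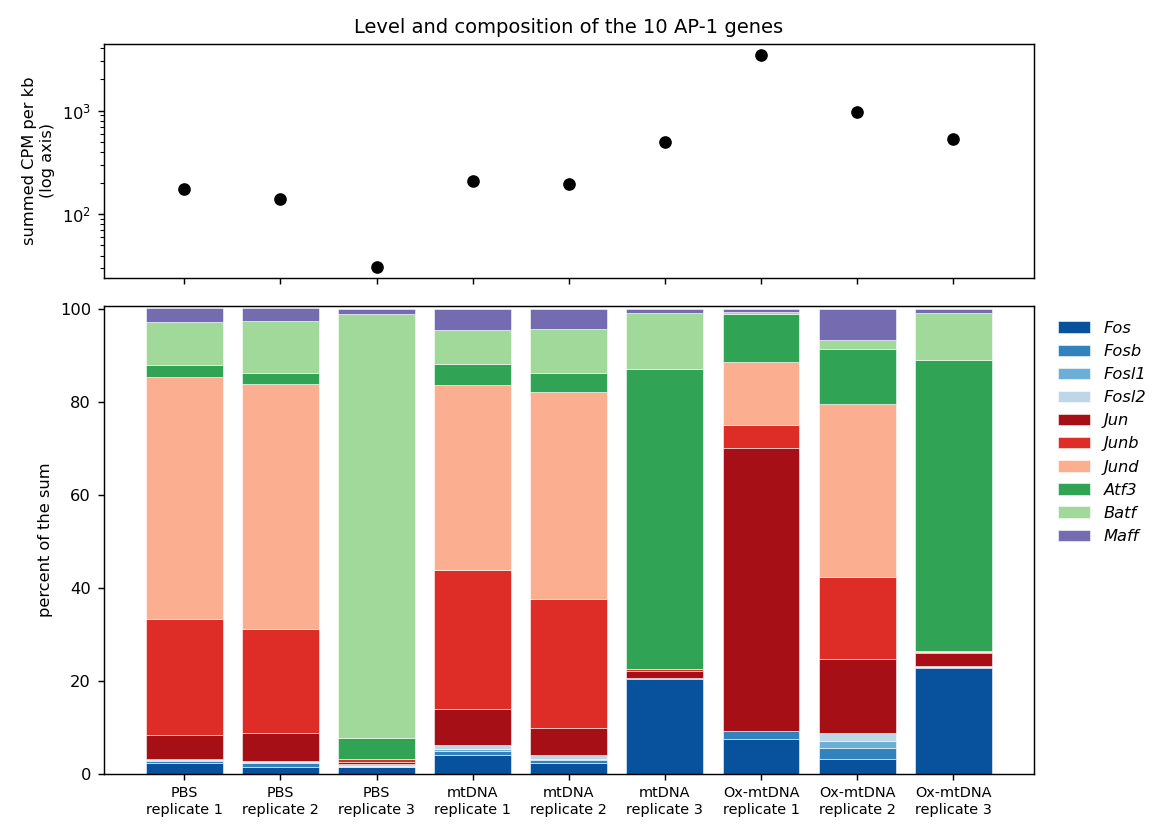
Top, the summed CPM per kilobase of exon of the 10 AP-1 genes in each library (log axis), and bottom, the percent of that sum held by each gene. Jund and Junb fill most of the bar in PBS and mtDNA replicates 1 and 2, Jun fills 60.7% in Ox-mtDNA replicate 1, and Atf3 fills over 60% in mtDNA and Ox-mtDNA replicate 3.

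Because GC-rich transcripts were low in the libraries numbered 3, each member was set beside tested genes within 1 percentage point of its GC content. The value is the log2 CPM of library 3 minus the mean of libraries 1 and 2 of a group. Jund, with 67.1% GC, was at -9.58 in PBS and -9.38 in Ox-mtDNA, where the 36 genes of like GC had medians of -2.62 and -2.50, and 0% of them were lower. In mtDNA it was at -6.50 against a median of -2.96, with 11.1% of these genes lower. Junb, with 62.6% GC, was at -7.51, -5.21 and -7.23 in PBS, mtDNA and Ox-mtDNA, against medians of -3.66, -3.36 and -3.13 over 209 genes. Jun, with 55.5% GC, was at -5.56 in PBS and -5.27 in Ox-mtDNA but at -0.89 in mtDNA, against medians of -1.06, -0.52 and -0.74 over 1490 genes. In PBS, 8 of 10 members were below the median of genes of like GC, all but Fosl1 and Batf. Batf went the other way, at 0.83, 1.85 and 1.53 against medians of -1.44, -1.14 and -0.95. Fos and Atf3 have less GC (51.9% and 52.2%), where the median difference was near 0. They were at 4.04 and 5.19 in mtDNA, above 99.4% and 99.9% of genes of like GC. In Ox-mtDNA they were at 0.44 and 0.69. The part of GC content in the low Jund, Junb and Jun values was not tested further.

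**Figure D4:**
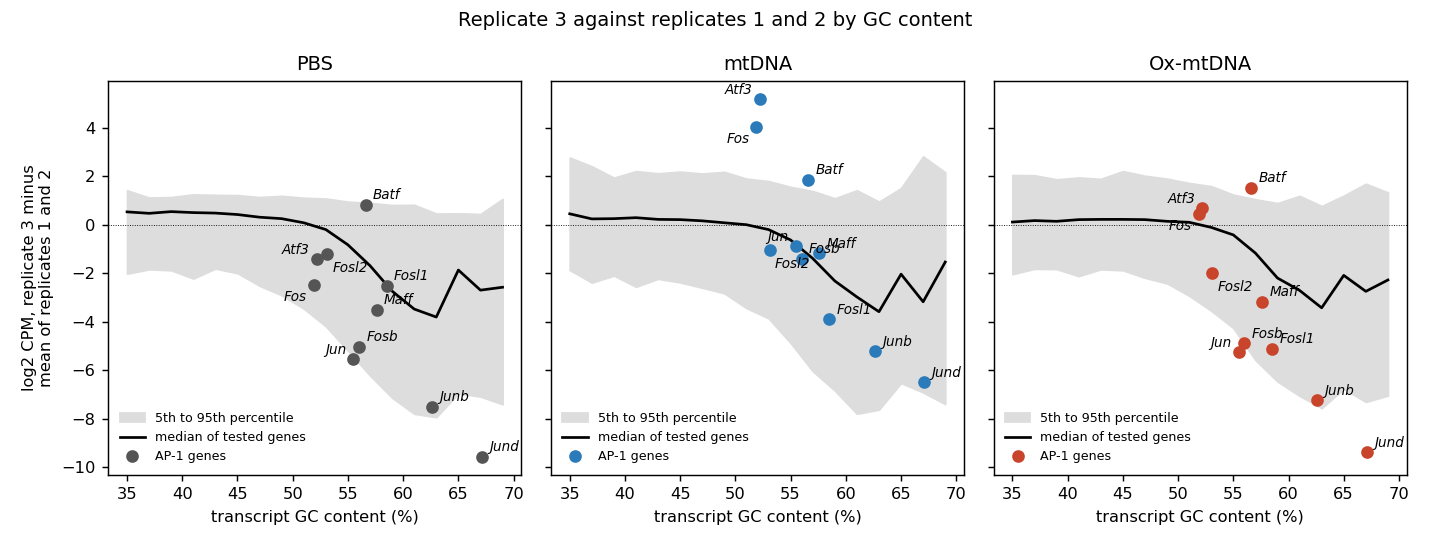
Log2 CPM of replicate 3 minus the mean of replicates 1 and 2 (y axis) against transcript GC content (x axis) in PBS, mtDNA and Ox-mtDNA, with the median (line) and the 5th to 95th percentile (grey) of tested genes in GC bins and the 10 AP-1 genes as points. Jund lies at -9.58 in PBS and -9.38 in Ox-mtDNA, below the grey band, and Atf3 and Fos lie above it in mtDNA at 5.19 and 4.04.

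The members were compared with each other and with other genes by the correlation of log2 CPM over the 9 libraries, after the mean of each replicate number had been removed. These are descriptions over 9 libraries that share treatment groups and replicate 3, and so are high for many genes. Fos and Atf3 were alike at 0.995 and Fosb and Jun at 0.987, while Fosl1 ranged from 0.008 with Batf to 0.826 with Fosl2. Among 13071 other genes, those most like Fos were Cd69 (0.998), an early activation receptor of lymphocytes, Hist1h3d (0.998), a histone gene, and Nr4a1 (0.996), an immediate-early nuclear receptor. CPM values in this paragraph were taken back from log2 CPM with its prior count of 2, so they lie slightly above plain CPM. Cd69 was at 31.1, 24.7 and 26.4 CPM in PBS, 50.1, 40.7 and 419 CPM in mtDNA and 231, 97 and 414 CPM in Ox-mtDNA. Like Fos it was high in mtDNA library 3 and lowest in library 2 of Ox-mtDNA. Those most like Jun were Klf6 (0.992), a zinc finger factor, Snord55 (0.991), a small nucleolar RNA, and Ccdc59 (0.991). Those most like Atf3 were Cdh17 (0.998), a cadherin, Gm17024 (0.998) and Pmaip1 (0.997), which encodes the cell death protein Noxa. Pmaip1 was at 1544 and 1614 CPM in the libraries numbered 3 of mtDNA and Ox-mtDNA and at 69.2 to 145 CPM in all PBS libraries and the other mtDNA libraries. Those most like Maff were Eif1 (0.999), a translation initiation factor, its overlapping gene ENSMUSG00000121075 (0.997) and Ifrd1 (0.997). Fragments over the bases shared by Maff and ENSMUSG00000121075 were counted for both, so the correlation of this pair is not independent of the counting.

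Around AP-1, 6 lists of related genes were examined in Ox-mtDNA against PBS, and none of their genes passed the adjusted threshold in edgeR on 9 libraries. DESeq2 on 9 libraries called 2 bZIP partners, 4 AP-1 targets and 1 negative regulator higher and no gene of the other lists, against 1.22% of all genes. Over libraries 1 and 2 edgeR called 1 AP-1 target and no gene of the other lists, against 0.146% of all genes. The counts below stand beside 53.8% of all genes with a positive fold change, and 5.88% higher and 3.93% lower at an unadjusted p under 0.05. The lists were chosen with earlier results of these data known, so these counts are descriptions. Of 24 tested bZIP partners, 17 had a positive fold change, with a median of 0.74, and at an unadjusted p under 0.05, 4 were higher and 1 lower, against 5.88% and 3.93% of all genes. Ddit3, a stress-induced factor of the unfolded protein response, was at 15, 15.8 and 16.3 CPM in PBS and at 42.8, 98.1 and 70.4 CPM in Ox-mtDNA, without overlap. Its log2 fold change was 2.17 (SE 0.57). Nfil3, a repressor of the same protein class, was at 4.02 to 5.07 CPM in PBS and 19.5 to 49.6 CPM in Ox-mtDNA, and Atf4, the partner of the integrated stress response, was at 151 to 168 CPM and 371 to 511 CPM. Creb1, which binds the CRE, was lower, at 137 to 219 CPM in PBS and 76.3 to 124 CPM in Ox-mtDNA, with a log2 fold change of -0.92 (SE 0.31). Both BATF partners of the IRF family were measured. Irf4 had a fold change of 1.26 (SE 0.66) and Irf8 one of 0.05 (SE 0.85).

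Of 24 MAP kinase genes upstream of AP-1, 11 had a positive fold change and the median was -0.06, near the 0.06 of all genes. Map3k8, a kinase that feeds ERK signalling after Toll-like receptor stimulation, was the sole one at an unadjusted p under 0.05, 1 of 24, no more than the 5.88% of all genes. It was at 15.2 to 23.6 CPM in PBS and 41.3 to 55.3 CPM in Ox-mtDNA, with a log2 fold change of 1.32 (SE 0.42). Map2k3, Map2k4 and Map3k4 were at 1.05 (SE 0.74), -0.74 (SE 0.53) and -0.44 (SE 0.33). Of 15 genes for factors and kinases that act on the Fos and Jun promoters, 6 were positive, the median was -0.07, and 3 were lower at an unadjusted p under 0.05 and none higher, against 3.93% and 5.88% of all genes. These were Rps6ka5, a kinase of CREB and histone H3, at 67.7 to 99.2 CPM in PBS and 43.2 to 47.1 CPM in Ox-mtDNA, Mrtfb, a coactivator of SRF, at 17.8 to 20 and 6.91 to 10.5 CPM, and Elk3, an SRF partner, at 35 to 43.8 and 9.7 to 22.1 CPM. The fourth by p, Rps6ka3, was at -0.56 (SE 0.26). RNA levels of kinases and factors do not show their activity.

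Of 25 genes listed as AP-1 targets, 18 were tested, 16 had a positive fold change, and the median was 2.06. At an unadjusted p under 0.05, 8 of 18 were higher and none lower, against 5.88% and 3.93% of all genes. This list too was chosen with earlier results of these data known, so the higher share is a description and not a test. Dusp1, whose product dephosphorylates MAP kinases, was at 7.02, 5.05 and 2.01 CPM in PBS, 13.5, 11.4 and 90.5 CPM in mtDNA and 272, 128 and 118 CPM in Ox-mtDNA. Its Ox-mtDNA libraries were above every other library, and the log2 fold change was 5.20 (SE 1.02) against PBS and 2.17 (SE 0.89) against mtDNA. Spp1, the cytokine osteopontin, was at 12.5 to 26.5 CPM in PBS, 13.4 to 51.1 CPM in mtDNA and 61.3 to 85.5 CPM in Ox-mtDNA, again without overlap. The growth factor genes Hbegf and Areg were low. Hbegf was at 0.152 to 0.567 CPM in PBS and 0.929 to 11.2 CPM in Ox-mtDNA, and Areg at 0.038 to 0.186 and 3.07 to 14.5 CPM. Areg in mtDNA library 3, at 10.6 CPM, again lay among the Ox-mtDNA libraries, as Fos and Atf3 did.

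Of 17 genes that degrade AP-1 proteins or messages or switch off their kinases, 14 had a positive fold change, with a median of 1.18, and 3 of 17 were higher at an unadjusted p under 0.05, against 5.88% of all genes. Zfp36, which encodes a protein that destroys messages with AU-rich elements, was at 79.6, 73.6 and 37.5 CPM in PBS and 741, 328 and 145 CPM in Ox-mtDNA. Its log2 fold change was 2.67 (SE 0.74). Dusp16 and Dusp10, phosphatases of JNK and p38, were at 13.7 to 19.5 and 13 to 14 CPM in PBS, and at 32.8 to 243 and 39.3 to 161 CPM in Ox-mtDNA. In mtDNA library 3 they were at 244 and 154 CPM, against 16.7 to 23.9 CPM in mtDNA libraries 1 and 2. Trib1, an adaptor for protein degradation, had a fold change of 1.58 (SE 0.73). The adjusted p of every gene named from these lists was 0.472 or higher in edgeR on 9 libraries. In mtDNA against PBS, which shares the PBS libraries, the list medians were 0.72 for targets, 0.38 for negative regulators, 0.19 for bZIP partners, -0.03 for MAP kinases and -0.02 for factors on the Fos and Jun promoters. In Ox-mtDNA against mtDNA they were 0.25, 0.39, 0.56, -0.04 and -0.18 in the same order.

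**Figure D5:**
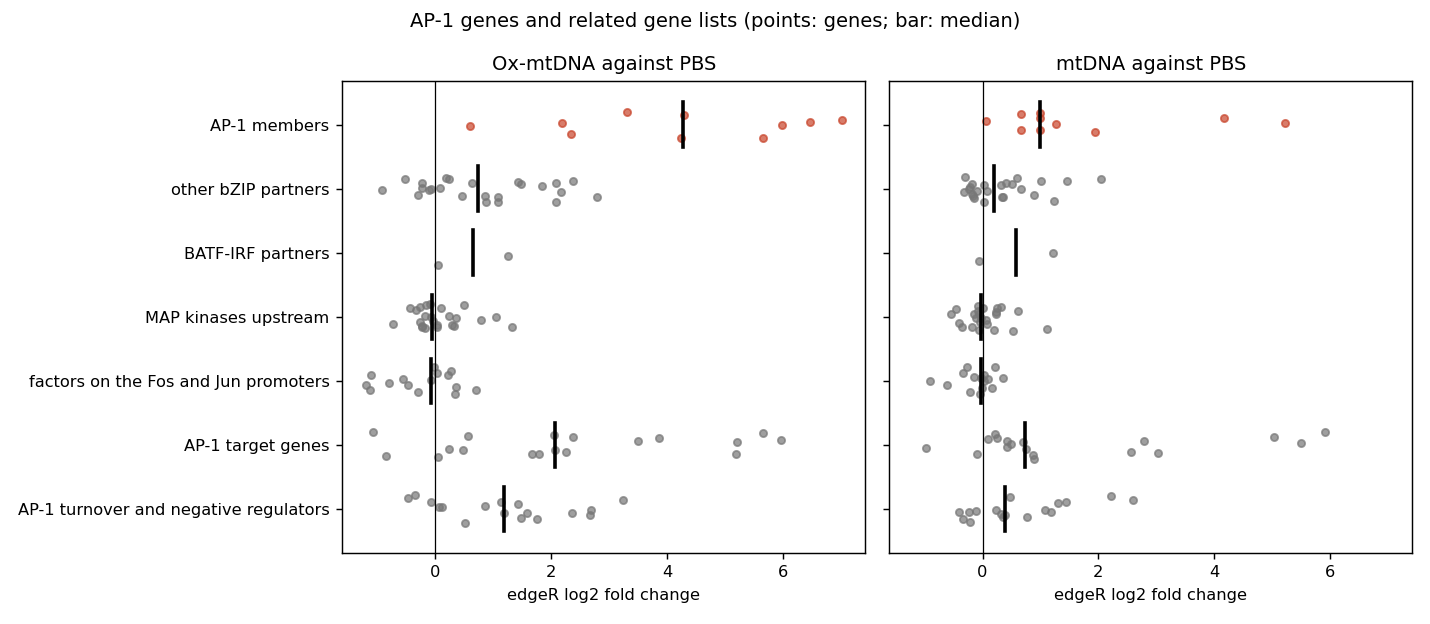
Log2 fold change (edgeR, x axis) of each tested gene in the AP-1 members and 6 related lists (rows), for Ox-mtDNA against PBS and mtDNA against PBS, with a bar at the median of each list. In Ox-mtDNA against PBS the medians are 4.27 for AP-1 members, 2.06 for AP-1 targets and 1.18 for negative regulators, and -0.06 and -0.07 for MAP kinases and for factors on the Fos and Jun promoters.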

How the data were processed

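The values are raw counts of fragments per gene, deposited by the authors without normalization, and so are the exon lengths. The submitters' processing notes name fastp 0.23.4, GRCm39, STAR 2.7.11b and featureCounts 2.0.1. Per the file headers, exons of GENCODE M34 were counted without strand, and a fragment over several genes was counted for each, so overlapping genes share reads. Libraries were grouped by their titles.

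The filter was filterByExpr (edgeR 4.0.16 in R 4.3.3, minimum count 10), and TMM factors scaled the libraries. One model over 9 libraries (6 residual degrees of freedom) was tested with the robust quasi-likelihood F-test of edgeR, two-sided, adjusted by Benjamini-Hochberg over 17555 genes (threshold 0.05). The procedure was tested on simulated counts. No outcome of that test is given here, so it does not show how the procedure performs on these libraries. Alternatives were DESeq2 1.42.0, limma-voom (limma 3.58.1), other scaling and filters, leaving out libraries and a replicate block. Deviations of same-numbered libraries from their group means correlated at 0.487 to 0.897. The library that stood apart in each group shifts that group's mean, and with it the deviations of the other libraries. These correlations therefore cannot show that the numbers pair the samples. The replicate block assumed such pairs, although the labels do not say what a number marks. GC content is of the longest transcript in an earlier GENCODE release on GRCm38, joined by gene identifier.

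Named were all 10 members, the 4 genes of smallest p in each related list, the 3 genes most like the highest member of each subfamily (mean log2 CPM at least 1), and overlapping genes. The members and lists were chosen with earlier results of these data known. Counts were under 10 for 4 members in PBS library 3 and for Fosl1 in mtDNA and Ox-mtDNA library 3, which limits ratios there.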

Additional observations from a re-analysis of the deposited data

How the results depend on the processing

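In edgeR on 9 libraries 0 genes and 0 members were called in each of the 3 comparisons, and leaving out each library in turn gave 0 to 0. In Ox-mtDNA against PBS the Wald test of DESeq2 called 328 genes and 4 members, and the replicate block 1 gene and 0 members. Restricted to libraries 1 and 2, a choice made after seeing the data, edgeR called 25 genes and 1 member (0 and 0 with the replicate block) and DESeq2 795 genes and 9 members. In mtDNA against PBS DESeq2 called 10 genes, and 13 over libraries 1 and 2. In Ox-mtDNA against mtDNA DESeq2 over libraries 1 and 2 called 754 genes and 9 members. The replicate block, which takes same-numbered libraries as pairs although this could not be shown, changed no other call in the fits on 9 libraries.

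Directions reversed for 3 members. Leaving out libraries moved Batf between -0.17 and 0.92 in Ox-mtDNA against PBS, -0.31 and 0.99 in mtDNA against PBS, and -0.85 and 0.91 in Ox-mtDNA against mtDNA. It moved Jund between -0.53 and 0.63 in mtDNA against PBS and Fosl1 between -0.97 and 3.88 in Ox-mtDNA against mtDNA, with the lowest value without Ox-mtDNA replicate 2. Batf in Ox-mtDNA against mtDNA was also positive with limma-voom (0.04), with the replicate block (0.01), and over libraries 1 and 2 (0.14, the same 0.14 with the replicate block, and 0.12 in DESeq2). The cause was not tested.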
